A study of Mus musculus with 12 samples.

Results

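Mouse embryonic stem cells sorted as 2-cell-like by a reporter were compared with reporter-negative cells of the same line before any sorbitol was given. The E14 line carried the construct 2C::3xtbGFP, in which turboGFP (tbGFP) reports the 2-cell-like state. The cells were cultured with serum and LIF on gelatin, plated without the 2 kinase inhibitors used for expansion, and sorted by fluorescence into tbGFP-positive and tbGFP-negative cells, 50000 per sample. Total RNA was sequenced after 0, 6 or 24 h of sorbitol. The comparison used the libraries whose titles name 0 h, 2 of tbGFP-positive and 2 of tbGFP-negative cells, which are 4 of the 12 libraries. Both groups had the same line, reporter and medium and had received no sorbitol, and the sort is the difference that the labels give between them. The promoter of the reporter, the number of clones and whether the 2 libraries of a group came from separate cultures are not given in the sources used here, so that p-values reflect the spread between libraries alone, which may be technical.

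A small share of mouse embryonic stem cells passes at any time through a state that resembles the blastomeres of the 2-cell embryo, when the embryo's own genome is first transcribed at scale. In this state the double-homeodomain protein Dux activates retrotransposons of the MERVL family and a set of genes, many of them in tandem arrays, such as Zscan4, Eif1a-like, PRAME-like, Usp17-like and Tdpoz genes. Repressors of chromatin, DNA methylation and replication-coupled chromatin assembly restrain the state. Because the sort used a reporter of this program, the direction of its genes follows from the sort and is no independent finding, and the values describe how far the sorted cells differed.

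The 4 libraries held 2306870 and 7344399 counts for tbGFP-negative replicates 1 and 2, and 6098314 and 4572157 for tbGFP-positive replicates 1 and 2, within a range of 2306870 to 7900178 over all 12. Levels are CPM, counts relative to library size, scaled with TMM factors, and are given for replicates 1 and 2 in that order. Replicates correlated across genes with r = 0.966 for tbGFP-negative and 0.939 for tbGFP-positive cells on the log2(CPM + 1) scale. The second tbGFP-positive library stood apart in complexity: with every library thinned to 2305061 counts, 17605 genes were detected in it, against 21543 in the first and 18674 and 20716 in the tbGFP-negative libraries. The tbGFP-positive libraries at 6 h, which entered the fit through the choice of tested genes and the shared estimate of spread, were sparser, with 17035 and 16525 genes. Mitochondrial genes held 6.21% and 5.68% of counts in tbGFP-negative and 4.64% and 5.88% in tbGFP-positive libraries. Markers of embryonic stem cells were present in both fractions: Pou5f1 had 1370 and 1200 CPM in tbGFP-negative and 1220 and 785 CPM in tbGFP-positive libraries. The part of depth and complexity in the results was not tested beyond the values without single libraries given beside them.

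The tbGFP-positive cells had higher RNA levels of a large set of genes and lower levels of a small one. Of 19384 genes tested, 1378 (7.11%) passed an adjusted p of 0.05 (edgeR, quasi-likelihood F test, Benjamini-Hochberg method): 1291 (6.66%) had higher and 87 (0.449%) lower levels in tbGFP-positive than in tbGFP-negative cells. Of the higher genes 479 had no count in either tbGFP-negative library, whereas 4 of the lower genes had none in the tbGFP-positive libraries. Changes of more than 2-fold made up 1214 of the higher and 47 of the lower calls. The median log2 fold change of all genes was 0.

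**Figure D1:**
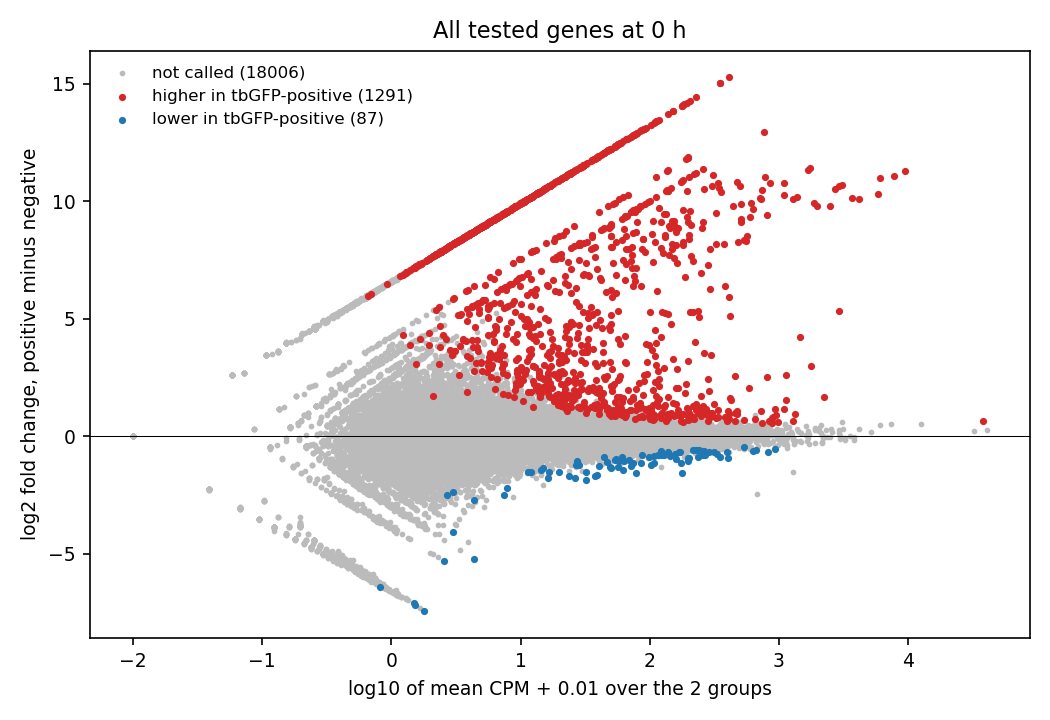
Each point is 1 of the 19384 tested genes, with the log10 of its mean CPM over the 2 groups plus 0.01 on the x axis and its log2 fold change at 0 h on the y axis, where positive values are higher in tbGFP-positive cells. The 1291 higher genes (red) reach a log2 fold change of 15.26, the 87 lower genes (blue) lie mostly closer to 0, and the upper diagonal line of points holds genes with no count in tbGFP-negative cells, whose fold change depends on the prior count.

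The higher genes took a large part of the libraries. Together they held 6.89% and 7.12% of counts in tbGFP-negative and 29.8% and 30% in tbGFP-positive libraries at 0 h, a description only, since they were chosen on these libraries. The libraries at later times entered the choice only through the filter and the shared estimate of spread. At 6 h the same 1291 genes held 10.4% and 10.4% of counts in tbGFP-negative and 26.2% and 25.8% in tbGFP-positive cells. At 24 h they held 9.73% and 9.79% against 29.7% and 27.6%. At these 2 later times the fractions did not overlap. Another 22 ways of processing the counts were tried (called alternatives here), and the split of calls depended on the scaling. With upper-quartile factors 1080 genes were higher and 620 lower, and with library totals alone 1078 were higher and 812 lower, while the median log2 fold change of all genes moved to -0.35 and -0.41. Leaving out tbGFP-negative replicate 2 left 797 higher and 13 lower genes, leaving out tbGFP-negative replicate 1 left 890 and 22, leaving out tbGFP-positive replicate 2 left 1095 and 50, and leaving out tbGFP-positive replicate 1 gave 1105 and 146. Leaving out both tbGFP-positive libraries at 6 h gave 1997 higher and 475 lower genes.

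**Figure D2:**
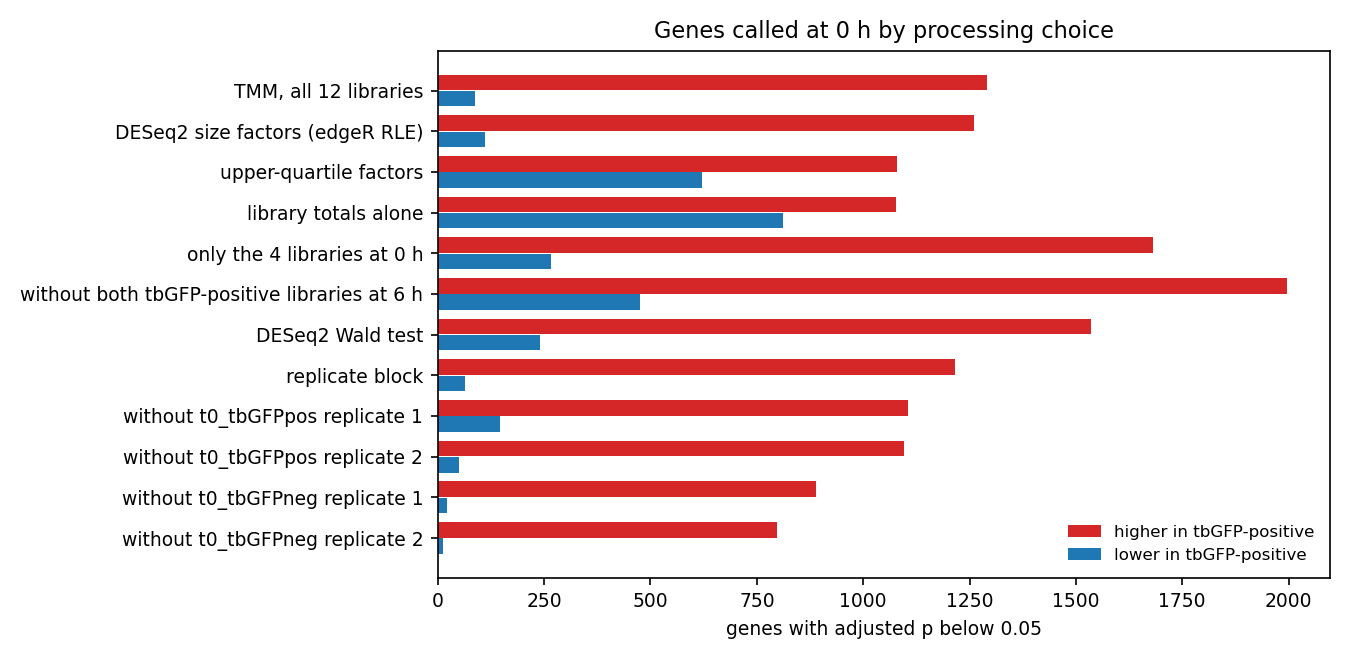
Horizontal bars give the number of genes with an adjusted p under 0.05 that were higher (red) or lower (blue) in tbGFP-positive cells at 0 h, under the main processing (top, 1291 and 87 genes) and 11 alternatives. The count of lower genes runs from 13 without tbGFP-negative replicate 2 to 812 with library totals alone, and the count of higher genes from 797 to 1997.

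Genes of the 2-cell program were higher in tbGFP-positive cells, most of them from a level near 0. The lists of the program named 95 symbols, of which 92 were annotated, 85 had a count in some library and 71 passed the filter on low counts. Of these 71, 64 were higher, 0 were lower and 7 did not pass, against 6.66% of all tested genes higher. All 71 had a positive log2 fold change, and in 68 both tbGFP-positive libraries lay above both tbGFP-negative ones, which held for 24.7% of all tested genes. Members could pass the filter on low counts through the tbGFP-positive libraries alone. Nothing is therefore read from these shares, nor from those of the single arrays below. The median log2 fold change of the 71 was 10.03, or 8.81 with the 29 genes that had no count in tbGFP-negative cells set at their lower bounds. The members together summed to 479 and 494 CPM in tbGFP-negative and to 118000 and 129000 CPM in tbGFP-positive libraries.

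Dux stands at the top of this program. Duxf3, the symbol under which Dux is annotated on chromosome 10, had 0 and 0.227 CPM in tbGFP-negative and 120 and 78.8 CPM in tbGFP-positive libraries. The level in tbGFP-negative cells rested on 2 counts, and the ratio was 585 with a 95% counting interval of 162 to 4840. Gm4981, its neighbour in the same array, had 0 and 0.227 against 92.1 and 80.3 CPM, a ratio of 499 (138 to 4130). Both passed the test (adjusted p = 1.3e-08 and 3.64e-08, edgeR). Duxbl1, a Dux-like gene on chromosome 14, had 0 and 0.227 against 1.34 and 4.45 CPM and did not pass (adjusted p = 0.178).

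The Zscan4 genes, a cluster on chromosome 7 that encodes SCAN and zinc finger proteins linked to telomere maintenance in embryonic stem cells, were higher in all 9 of 9 annotated members. Their copies are nearly identical, and how reads were shared among them is not stated, so levels of single copies are uncertain. Their sum is safer: the 9 members, pseudogenes included, had 27.3 and 55 CPM in tbGFP-negative and 73800 and 81800 CPM in tbGFP-positive libraries. Without the pseudogenes, Zscan4a to Zscan4f held 0.00169% and 0.00422% of counts in tbGFP-negative and 4.17% and 4.89% in tbGFP-positive libraries. Zscan4d had 4.85 and 9.09 CPM in tbGFP-negative and 18100 and 19800 CPM in tbGFP-positive libraries. Its log2 fold change was 11.29 ± 0.27 (SE, adjusted p = 5.25e-13), and it passed in all 22 alternatives. Zscan4c had 4.11 and 12.4 against 11100 and 12300 CPM, a log2 fold change of 10.3 ± 0.41. Zscan4a (11.06 ± 0.36), Zscan4f (10.64 ± 0.33), Zscan4-ps2 (10.07 ± 0.25) and Zscan4-ps3 (10.96 ± 0.35) were also among the 10 genes with the largest rise in CPM. Zscan4b and Zscan4e had no count in tbGFP-negative cells and 14.4 and 3.71 CPM and 13.2 and 6.18 CPM in tbGFP-positive libraries, which makes them at least 37.2-fold and 38.8-fold higher, with tbGFP-negative cells set at 3 counts in total. The tbGFP-negative libraries held Zscan4d at 18.3 and 15.6 CPM at 6 h and at 233 and 205 CPM at 24 h.

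The promoters of Zscan4c and Zscan4d are shown because they let a reader see how alike these copies are and where their core promoter string lies. Windows from 250 bases before to 50 bases after the start, from RefSeq (GRCm38.p6), are in lower case with the string TATAAA of a TATA box in capitals, read 5′ to 3′ on the gene's strand. Zscan4c lies at chr7:11005495-11005794 on the plus strand and Zscan4d at chr7:11166099-11166398 on the minus strand.
Zscan4c: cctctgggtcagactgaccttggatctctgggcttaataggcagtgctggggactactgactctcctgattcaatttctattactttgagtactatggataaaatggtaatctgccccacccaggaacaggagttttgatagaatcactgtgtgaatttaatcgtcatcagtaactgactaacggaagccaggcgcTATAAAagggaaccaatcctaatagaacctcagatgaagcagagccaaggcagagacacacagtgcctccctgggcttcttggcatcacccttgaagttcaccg
Zscan4d: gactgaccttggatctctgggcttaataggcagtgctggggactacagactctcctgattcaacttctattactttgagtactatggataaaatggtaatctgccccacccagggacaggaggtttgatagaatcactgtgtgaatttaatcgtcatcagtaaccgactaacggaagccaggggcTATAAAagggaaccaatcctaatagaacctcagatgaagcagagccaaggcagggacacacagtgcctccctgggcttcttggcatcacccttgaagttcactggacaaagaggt
Lined up at this string, the 2 windows had 281 of 289 bases in common (97.2%), and those of Zscan4b, Zscan4c, Zscan4d and Zscan4f had 95.3% to 99.3% in common by pair. The string began 54 bases before the annotated start in Zscan4c, 65 in Zscan4d and 31 in Zscan4b and Zscan4f. Searched on both strands, TATAAA was found in 4473 of 32851 promoters (13.6%), in 1027 of those of 10659 tested genes (9.64%), in 92 of the 562 higher genes with a promoter in the table (16.4%) and in 7 of the 50 lower genes.

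A second string was GATTNAATC, a pair of homeobox half-sites of the kind that double-homeodomain proteins bind. It was in 88 promoters (0.268%), in 36 of those of tested genes (0.338%), in 13 of the 562 higher genes (2.31%) and in 0 of the 50 lower genes. Duxf3 and the PRAME-like genes Gm13040, Gm13043 and Gm13057 were among the 13. AF067061, a gene near Tcstv3 at chr13:120262845-120263144 on the plus strand, and Gm13043, at chr4:143511093-143511392 on the plus strand, are shown as holders from 2 different arrays, with the match in capitals.
AF067061: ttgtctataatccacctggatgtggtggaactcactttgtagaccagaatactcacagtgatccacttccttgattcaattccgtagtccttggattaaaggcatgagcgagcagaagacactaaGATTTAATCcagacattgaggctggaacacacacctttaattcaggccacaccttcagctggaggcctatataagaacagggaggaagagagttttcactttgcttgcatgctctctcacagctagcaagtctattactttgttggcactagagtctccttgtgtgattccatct
Gm13043: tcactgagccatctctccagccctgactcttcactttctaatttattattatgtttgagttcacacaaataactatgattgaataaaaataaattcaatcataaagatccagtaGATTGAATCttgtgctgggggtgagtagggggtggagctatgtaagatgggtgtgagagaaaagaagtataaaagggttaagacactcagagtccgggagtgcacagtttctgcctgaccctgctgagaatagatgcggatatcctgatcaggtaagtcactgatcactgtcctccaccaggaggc
The match began 125 bases before the start of AF067061 and 136 before that of Gm13043. AF067061 had no count in tbGFP-negative and 25.1 and 42.5 CPM in tbGFP-positive libraries, and Gm13043 had none against 24.9 and 41.8 CPM. Results are given for 7 strings, and GATTNAATC was chosen for display after the counts were seen. Another 7 longer strings, all of them pairs of homeobox half-sites, were searched and are not reported here. AATCNAATC, which can overlap GATTNAATC, was in 0.487% of promoters, in 0.572% of tested genes and in 6 of the 562 higher genes (1.07%). In the same order, TGACCTTG was in 1.56%, in 1.37% and in 12 (2.14%). CCAATCAGA was in 1.81%, in 3.09% and in 18 (3.2%). TTATCT was in 11.2%, in 8.27% and in 63 (11.2%), and CACTTCC in 11%, in 15.6% and in 56 (9.96%). Members of an array have similar promoters and are not separate cases, and a match describes letters in a window and does not show binding.

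The other arrays of the program followed. The Eif1a-like genes on chromosome 12, which resemble a translation initiation factor, were higher in 11 of 11 tested members, with a median log2 fold change of 9.79. Gm8300 among them had 2.61 and 4.2 CPM in tbGFP-negative and 5550 and 6720 CPM in tbGFP-positive libraries, a log2 fold change of 10.69 ± 0.24 (SE, adjusted p = 4.64e-13). Gm5662 had 3.73 and 8.06 against 6500 and 8080 CPM. These copies are close to one another as well, so single values carry the same limit as those of Zscan4. The PRAME-like genes, which encode leucine-rich repeat proteins, were less uniform: 12 of 16 tested members were higher and 4 did not pass. Gm12794 had 4.48 and 1.48 against 2850 and 2660 CPM (log2 fold change 10.17 ± 0.33). Pramef12 had 201 and 172 against 237 and 149 CPM, so that the groups overlapped (log2 fold change 0.05 ± 0.21, adjusted p = 0.961). Pramel7 started from a measurable level, 4.85 and 8.75 CPM, and had 226 and 312 CPM in tbGFP-positive cells (5.21 ± 0.44).

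All 5 Usp17-like genes tested, which encode deubiquitinases, all 4 Tdpoz genes, which encode TRAF- and POZ-domain proteins, and both Tcstv genes were higher. Usp17lc had no count in tbGFP-negative cells and 381 and 433 CPM in tbGFP-positive cells, at least 1550-fold higher. Tdpoz3 had none against 776 and 858 CPM, at least 3110-fold higher. Tcstv3 had none against 93.3 and 97.1 CPM, at least 363-fold higher. Zfp352, a zinc finger gene of the 2-cell embryo, had none against 37.9 and 43.5 CPM, at least 154-fold higher. Each of the 4 genes passed in all 22 alternatives. Of the Obox homeobox genes 1 of 3 tested members was higher: Obox6 had 2.99 and 2.27 against 53.6 and 52.6 CPM (log2 fold change 4.39 ± 0.36). Trim43a, Trim75 and Rfpl4b, ring finger genes, were higher in 3 of 3 tested.

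Among genes outside these arrays, all 15 tested members of the list were higher, and they differed in their level in tbGFP-negative cells. Tmem92, a membrane protein gene, had 0 and 0.227 against 373 and 354 CPM, a ratio of 2090 (579 to 17300). Sp110, a nuclear body gene, had no count against 86.9 and 44.5 CPM, at least 262-fold higher. Abcb5, a transporter gene, had 0 and 0.227 against 126 and 130 CPM, a ratio of 734 (203 to 6070). Ddit4l, an inhibitor of mTOR signalling, had 8.22 and 6.02 against 242 and 273 CPM (log2 fold change 5.23 ± 0.26). Calcoco2, an autophagy receptor gene, had the smallest change of the list, from 53.8 and 60.2 to 115 and 141 CPM (1.16 ± 0.25, adjusted p = 0.00592).

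**Figure D3:**
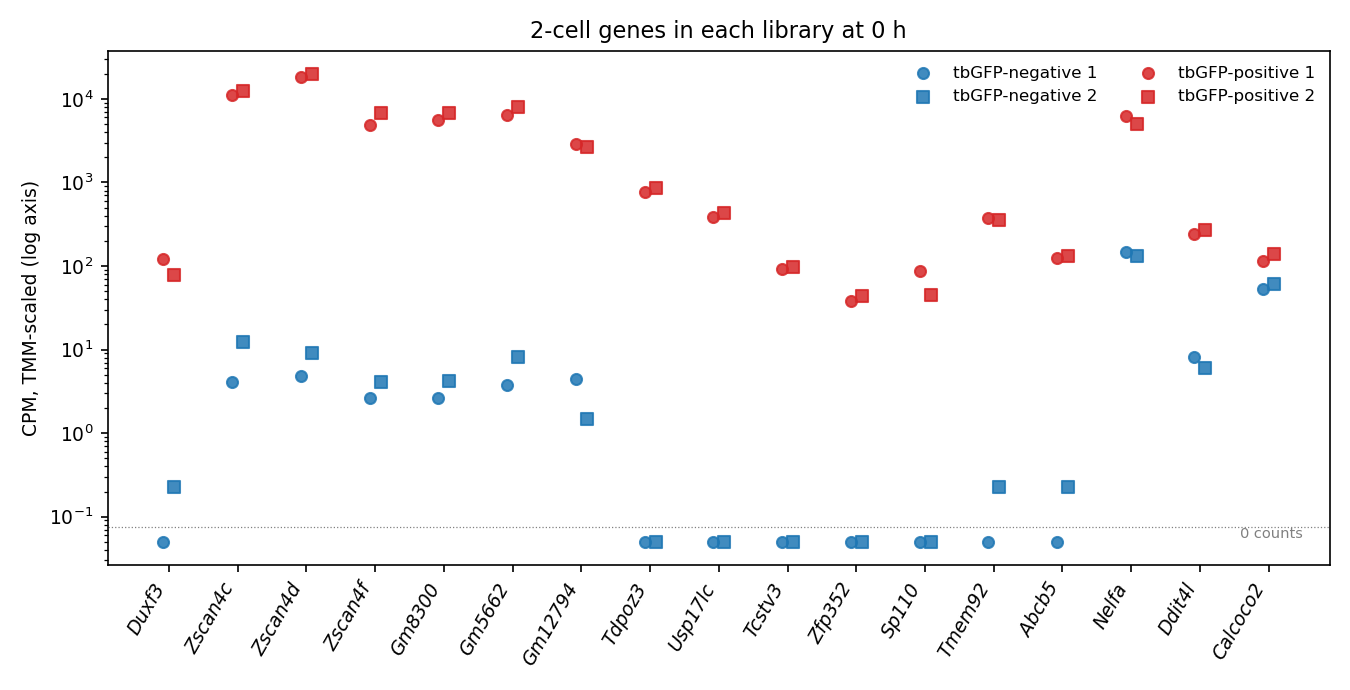
Each point is 1 library at 0 h, with its TMM-scaled CPM on a log axis, for 17 genes of the 2-cell program on the x axis. Red points are tbGFP-positive and blue points tbGFP-negative libraries (circles replicate 1, squares replicate 2), and points under the dotted line stand for 0 counts. The red points lie above the blue ones for every gene shown, from Calcoco2 (53.8 and 60.2 against 115 and 141 CPM) to Zscan4d (4.85 and 9.09 against 18100 and 19800 CPM).

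Pseudogenes and neighbours of the arrays were part of the higher set. Of 2947 tested pseudogenes 304 were higher (10.3%), of 2476 long noncoding genes 204 (8.24%), of 479 small or structured RNA genes 42 (8.77%) and of 12386 protein-coding genes 686 (5.54%), beside 6.66% of all tested genes. The Obox pseudogenes on chromosome 7, a group formed by symbol after values were seen, were higher in 22 of 28 tested of 48 annotated. They summed to 1.12 and 1.93 CPM in tbGFP-negative and to 1000 and 983 CPM in tbGFP-positive libraries. Such members could pass the filter on low counts through the tbGFP-positive libraries alone. Nothing is therefore read from their share, beside 6.66% of all tested genes higher. Of the higher genes 591 of 1291 (45.8%) lay next to another higher gene in the order of tested genes, against 2249 of 19384 (11.6%) of all tested genes. There were 23 runs of 5 or more higher genes in that order, which held 158 genes (12.2% of the higher ones). A run of 12 genes lay on chromosome 10 at 100297941 to 100382560 (GRCm38). A run of 10 on chromosome 1, at 85067394 to 85645037, held Sp110 and Sp140. A run of 6 on chromosome 10, at 57515774 to 58240661, held Duxf3 and Gm4981. Neighbours in an array can share reads, and reads that run past the end of a gene can be counted in the next one, so neighbouring calls are not separate cases. Olfactory receptor genes were higher in 9 of 46 tested of 1107 annotated, and vomeronasal receptor genes in 4 of 13 tested of 330 (19.6% and 30.8%, against 6.66% of all tested genes). Most annotated members were below the filter, and a member could pass it through the tbGFP-positive libraries alone, so nothing is read from these shares.

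Some genes with known roles in transcription by RNA polymerase II were higher alongside the arrays. Nelfa, a subunit of the negative elongation factor that holds polymerase near promoters, had 147 and 133 CPM in tbGFP-negative and 6330 and 5030 CPM in tbGFP-positive libraries. Its log2 fold change was 5.34 ± 0.22 (SE, adjusted p = 1.13e-10). A list of 63 tested initiation and elongation factors, assembled after values were seen, had 9 higher and 0 lower members, beside 6.66% of all tested genes higher, and a median log2 fold change of 0.06. At an unadjusted p under 0.05, 12 members were higher and 1 lower, and DESeq2 called 10 higher and 0 lower. The split depended on scaling: library totals alone gave 4 higher and 4 lower members, and upper-quartile factors gave 4 and 3. Without either tbGFP-negative library 4 were higher and 0 lower, and without tbGFP-positive replicate 2 it was 6 and 0. Ctr9, of the PAF1 elongation complex, had 34.4 and 38.6 against 163 and 201 CPM (2.31 ± 0.31). Gtf2b, which encodes TFIIB, had 115 and 127 against 477 and 438 CPM (1.91 ± 0.17). Eloa, which encodes elongin A, had 207 and 199 against 606 and 655 CPM (1.64 ± 0.15). These 4 genes passed in all 22 alternatives. Gtf2f2 of TFIIF (0.91 ± 0.20), the polymerase subunit gene Polr2b (0.58 ± 0.14), Taf7 of TFIID (0.65 ± 0.14) and Hexim1, an inhibitor of P-TEFb (1.00 ± 0.25), passed in 17 alternatives each. Without tbGFP-negative replicate 1 their adjusted p was 0.0865 for Gtf2f2, 0.145 for Polr2b, 0.059 for Taf7 and 0.121 for Hexim1, and with library totals alone it was 0.172, 0.599, 0.398 and 0.169. Without tbGFP-negative replicate 2 it was 0.0973, 0.104, 0.0955 and 0.242. Without tbGFP-positive replicate 2 it was 0.0904 for Gtf2f2, 0.103 for Polr2b and 0.0549 for Taf7, and without tbGFP-positive replicate 1 it was 0.222 for Hexim1. Rn7sk, the 7SK RNA that works with HEXIM1, had 29900 and 29100 against 55900 and 37000 CPM (0.66 ± 0.18, adjusted p = 0.0368) and passed in 7 alternatives. Without tbGFP-positive replicate 1 its log2 fold change was 0.33 (adjusted p = 0.351), and without tbGFP-negative replicate 1 or 2 its adjusted p was 0.219 or 0.28. It was 0.0609 to 0.092 without any single library at 6 h or tbGFP-negative library at 24 h.

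Several abundant or strongly changed genes stood outside the lists of the 2-cell program. By the rule on fold change among genes with 10 counts in each library, Spesp1, a sperm equatorial segment protein gene, had 3.73 and 2.84 against 983 and 924 CPM (log2 fold change 8.25 ± 0.27). Zfp560, a zinc finger gene, had 7.89 ± 1.52 against 575 ± 100 CPM (mean ± SD, n = 2, log2 fold change 6.24 ± 0.23), and Lonrf3, a LON and ring finger gene, had 4.48 and 2.38 against 202 and 244 CPM (6.17 ± 0.40). The pseudogene Gm13228 (6.40 ± 0.27) and the long noncoding gene Gm41409 (6.38 ± 0.45) completed that set. Other genes were chosen after their values were seen. Sord encodes sorbitol dehydrogenase, which converts sorbitol to fructose, and had 137 and 132 against 823 and 742 CPM before any sorbitol was given (2.54 ± 0.17, adjusted p = 2.58e-08). Of 5 tested polyol pathway genes Sord alone passed, and Akr1b3, the aldose reductase gene, had 26.1 and 32.7 against 26.4 and 24 CPM (adjusted p = 0.736). Epm2a, which encodes the glycogen phosphatase laforin, had 2.24 and 4.32 against 518 and 611 CPM (7.27 ± 0.27). Rdh1, a retinol dehydrogenase gene, had no count against 425 and 482 CPM, at least 1720-fold higher. Mreg, the melanoregulin gene, had 337 and 310 against 1920 and 1950 CPM (2.58 ± 0.14). Cand1, an exchange factor of cullin ubiquitin ligases, had 1040 and 1130 against 3150 and 3670 CPM (1.65 ± 0.14). Csnk2a1, a catalytic subunit of casein kinase, had 572 and 585 against 1610 and 1770 CPM (1.55 ± 0.15). All of these higher genes passed in all 22 alternatives.

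Some stress-related genes were higher without sorbitol, in small numbers and not in every list. Of 11 tested osmotic response genes 0 were higher and 1 lower, of 15 NRF2 targets 0 and 0, and of 15 ATF4 targets 1 and 0. Over all tested genes the shares were 6.66% and 0.449%. With library totals alone these lists had 0 and 2, 0 and 3, and 1 and 3. Of 13 tested heat shock genes 2 were higher, the nearly identical Hspa1a and Hspa1b, and 0 were lower, beside 6.66% of all tested genes higher. The counts were 2 and 0 at an unadjusted p under 0.05 and with DESeq2. They were 2 and 3 with library totals alone and 2 and 1 with upper-quartile factors. Hspa1a, an inducible HSP70 gene, had 1.49 and 1.93 against 63.6 and 27.7 CPM (4.66 ± 0.46), and Hspa1b had 7.84 and 5.68 against 141 and 104 CPM (4.24 ± 0.28). Hspa4, a constitutive member, had 954 and 1020 against 840 and 1050 CPM, so the groups overlapped. Of 18 listed immediate-early genes 13 were tested. Of these, 4 were higher and 0 lower, beside 6.66% of all tested genes higher, with a median log2 fold change of 0.21. The counts were also 4 and 0 at an unadjusted p under 0.05 and with DESeq2, but 2 and 0 with library totals alone, with upper-quartile factors or without tbGFP-positive replicate 1, and 1 and 0 without tbGFP-negative replicate 2. Btg1, an antiproliferative gene, had 53.8 and 50.9 against 181 and 157 CPM (1.69 ± 0.18) and passed in all alternatives. Jun had 24.6 and 17.2 against 76.8 and 48.2 CPM (1.61 ± 0.31), Fos 16.4 and 10.6 against 52.5 and 24.7 CPM (1.56 ± 0.37), and Ier5 21.3 and 14.7 against 37.3 and 42.7 CPM (1.19 ± 0.25). Without tbGFP-negative replicate 2 the adjusted p was 0.103 for Jun, 0.279 for Fos and 0.192 for Ier5, and without tbGFP-positive replicate 1 it was 0.0505 for Jun and 0.187 for Fos. Of 21 p53 targets 3 were higher and 1 lower, beside 6.66% and 0.449% of all tested genes. The counts were also 3 and 1 with library totals alone, upper-quartile factors or DESeq2. They were 6 and 1 without both tbGFP-positive libraries at 6 h. Btg2 had 73.2 and 64.3 against 336 and 294 CPM (2.20 ± 0.28), and Ddit4, an mTOR inhibitor gene, had 121 and 115 against 480 and 289 CPM (1.71 ± 0.29). Plk2 had 27.3 and 31.4 against 161 and 141 CPM (2.35 ± 0.50), and its adjusted p was 0.0576 without tbGFP-negative replicate 1 and 0.055 without replicate 2. Zmat3 had 21.3 and 14.9 against 6.7 and 5.44 CPM (-1.55 ± 0.36), and its adjusted p was 0.136 without tbGFP-negative replicate 1 and 0.0942 without tbGFP-positive replicate 2.

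Most pluripotency genes did not pass the test, as held for all tested genes. Of 21 tested naive pluripotency genes 1 was higher and 1 lower, beside 6.66% and 0.449% of all tested genes. The median log2 fold change of the list was 0.04, beside 0 for all genes. Library totals alone gave 0 higher and 4 lower members and upper-quartile factors gave 1 and 2, and without either tbGFP-negative library or tbGFP-positive replicate 1 the counts were 0 and 0. Sox2 had 477 and 404 CPM in tbGFP-negative and 492 and 392 CPM in tbGFP-positive libraries (0.01 ± 0.17, adjusted p = 1), and Klf4 had 201 and 196 against 226 and 187 CPM (0.06 ± 0.20, adjusted p = 0.956). The groups overlapped for both genes, and their sign turned with other scaling factors. Pou5f1, which encodes OCT4, had a log2 fold change of -0.36 ± 0.27 (adjusted p = 0.613). Esrrb had 19.4 and 13.5 against 13.8 and 7.91 CPM (adjusted p = 0.636) and Zfp42, which encodes REX1, 8.59 and 9.65 against 6.89 and 5.19 CPM (adjusted p = 0.857). Both had low counted levels, so a change in Esrrb or Zfp42 could be missed. All of these values are RNA levels, and the protein was not measured. Nanog was higher, with 11.9 and 13.5 against 44.6 and 40.3 CPM (1.73 ± 0.41, adjusted p = 0.0139), and passed in 18 of 22 alternatives. Its adjusted p was 0.152 without tbGFP-negative replicate 1, 0.133 without tbGFP-negative replicate 2, 0.0743 without tbGFP-positive replicate 1 and 0.0676 with library totals alone. Gdf3, a TGF-beta family ligand, was lower, with 288 and 263 against 180 and 186 CPM (-0.59 ± 0.16, adjusted p = 0.0318), and passed in 12 alternatives. Its adjusted p was 0.256 without tbGFP-negative replicate 1, 0.118 without tbGFP-negative replicate 2, 0.101 without tbGFP-positive replicate 1 and 0.0937 without tbGFP-positive replicate 2, and 0.0531 to 0.0713 without any single tbGFP-negative library at 6 or 24 h.

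Lists of signalling and transport genes held some calls, beside 6.66% of all tested genes higher and 0.449% lower. Lifr, the receptor of the LIF in the medium, was the lower member among 13 tested genes of the LIF and STAT3 pathway, with 301 and 322 against 150 and 181 CPM (-0.91 ± 0.19, adjusted p = 0.00424). With library totals alone 3 members of this list were lower. The adjusted p of Lifr was 0.0668 without tbGFP-negative replicate 2 and 0.0585 without tbGFP-positive replicate 1. Il6st, the co-receptor gp130, had 50.8 and 57.9 against 32.4 and 22.7 CPM (adjusted p = 0.121), and Socs3, a STAT3 target, had 417 and 392 against 387 and 330 CPM (adjusted p = 0.845). Among 14 FGF-ERK feedback genes Dusp4, a phosphatase of ERK, was higher (24.3 and 19.3 against 95.8 and 64 CPM, 1.90 ± 0.34) and Spred1, an inhibitor of RAS signalling, lower (329 and 337 against 176 and 217 CPM, -0.76 ± 0.20). Without tbGFP-negative replicate 2 the adjusted p was 0.0684 for Dusp4 and 0.215 for Spred1, which also missed the threshold without tbGFP-negative replicate 1 (0.158), without tbGFP-positive replicate 1 (0.192), without tbGFP-positive replicate 2 (0.0563) and without the first (0.0552) or second (0.0549) tbGFP-negative library at 24 h. With library totals alone or upper-quartile factors 1 FGF-ERK feedback gene was higher and 4 were lower. Fzd5, a WNT receptor gene chosen after its values were seen, had 312 and 343 against 191 and 188 CPM (-0.79 ± 0.16) and an adjusted p of 0.0808 without tbGFP-negative replicate 2. Slc7a1, the cationic amino acid transporter, had 534 and 534 against 264 and 290 CPM (-0.95 ± 0.17, adjusted p = 0.00182) and passed in all 22 alternatives. Slc38a2, a neutral amino acid transporter, had 942 and 1070 against 555 and 694 CPM (-0.69 ± 0.16, adjusted p = 0.0142), with an adjusted p of 0.206 without tbGFP-negative replicate 2 and 0.145 without tbGFP-positive replicate 1. In total 0 of 12 tested amino acid transporters were higher and 2 lower (0 and 2 at an unadjusted p under 0.05 and with DESeq2).

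Calls were few among the regulators that restrain the 2-cell program, as among all tested genes. Of 37 tested repressors 1 was higher and 1 lower, beside 6.66% and 0.449% of all tested genes. The median log2 fold change of the list was -0.17, and members that did not pass may still differ. With library totals alone or upper-quartile factors 0 were higher and 3 lower, and without either tbGFP-negative library 0 and 0. Zfp809, a zinc finger repressor of retroviruses, had 59.7 and 59.7 against 97.7 and 112 CPM (0.81 ± 0.21, adjusted p = 0.0272), and it passed in 12 of 22 alternatives. Its adjusted p was 0.184 without tbGFP-negative replicate 1, 0.217 without replicate 2, 0.133 without tbGFP-positive replicate 2, 0.0506 to 0.0553 without any single library at 24 h and 0.335 with library totals alone. Lin28a, an RNA-binding protein gene, had 1100 and 1110 against 728 and 779 CPM (-0.56 ± 0.15, adjusted p = 0.0314) and passed in 13. Its adjusted p was 0.172 and 0.206 without tbGFP-negative replicates 1 and 2, and 0.142 and 0.0906 without tbGFP-positive replicates 1 and 2. Without 5 single libraries at later times it was 0.05 to 0.0648. Trim28, a corepressor of zinc finger proteins, had 24.3 and 15.1 against 37.3 and 12.6 CPM, and Chaf1a, of the chromatin assembly factor, had 5.6 and 4.43 against 3.83 and 1.48 CPM. Neither passed (adjusted p = 0.834 and 0.802). Of 12 DNA methylation genes 0 were called in either direction by edgeR, 1 was higher and 1 lower at an unadjusted p under 0.05, and DESeq2 called 0 higher and 1 lower. Dnmt1 had 3.36 and 2.73 against 3.83 and 5.44 CPM and Uhrf1 2.24 and 4.43 against 2.11 and 5.44 CPM, and neither passed (adjusted p = 0.886 and 0.986). These levels, like those of Chaf1a, rest on few counts, so nothing is read from these genes not passing. Dppa2, an activator of Dux, had 12.3 and 6.82 against 28.7 and 43.2 CPM (1.94 ± 0.66, adjusted p = 0.108), without overlap of the groups. It passed in 6 of 22 alternatives, with an adjusted p of 0.00105 without both tbGFP-positive libraries at 6 h. Dppa4, its partner, had 12.3 and 16.1 against 14.4 and 16.8 CPM (adjusted p = 0.968).

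A group of lower genes lay in the imprinted Dlk1-Dio3 region of chromosome 12, where long noncoding RNAs are transcribed from the maternal and Rtl1 from the paternal chromosome. Of 8 tested long transcripts of the region, a list assembled after values were seen, 5 were lower and 0 higher (6 and 0 at an unadjusted p under 0.05, 5 and 0 with DESeq2), against 0.449% of all tested genes lower. The median log2 fold change of the 8 was -1.24. Rtl1, a retrotransposon-derived gene, had 252 and 275 CPM in tbGFP-negative and 104 and 74.1 CPM in tbGFP-positive libraries (-1.57 ± 0.21, adjusted p = 6.87e-05). A transcript antisense to Rtl1 exists, and its reads cannot be told apart here without a stated strand setting. Meg3 had 240 and 242 against 104 and 117 CPM (-1.13 ± 0.21, adjusted p = 0.0021), and Rian had 108 and 129 against 47.3 and 59.8 CPM (-1.15 ± 0.20, adjusted p = 0.000961). These 3 genes passed in all 22 alternatives. Mirg had 62 and 77.7 against 23.6 and 32.4 CPM (-1.33 ± 0.31), with an adjusted p of 0.176 without tbGFP-negative replicate 2 and 0.113 without tbGFP-positive replicate 1. The noncoding gene Gm26945 had 17.6 and 16.4 against 5.94 and 5.93 CPM (-1.51 ± 0.38), with an adjusted p of 0.11 to 0.121 without any single library at 0 h. The list held 4 lower members without tbGFP-negative replicate 1 and 3 without tbGFP-negative replicate 2 or tbGFP-positive replicate 1. Of all 8 tested members 6 had both tbGFP-positive libraries below both tbGFP-negative ones, beside 21.9% of all tested genes, and nothing is read from this, since the list was assembled with the values known.

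Other lower genes included regulators and noncoding RNAs. Neat1, the RNA of nuclear paraspeckles, had 170 and 131 against 63.8 and 70.7 CPM (-1.15 ± 0.19, adjusted p = 0.00066), and AV205837, a long noncoding gene on chromosome 16, had 51.5 and 66.2 against 16.3 and 21.5 CPM (-1.65 ± 0.29, adjusted p = 0.00126). Both passed in all 22 alternatives. Xist, the RNA of X inactivation, had 143 and 141 against 44.4 and 77.6 CPM (-1.23 ± 0.26, adjusted p = 0.007). Its adjusted p was 0.0613 and 0.0651 without tbGFP-negative replicates 1 and 2 and 0.0784 without tbGFP-positive replicate 1. The antisense gene Tsix overlaps it and had 57.5 and 69.3 against 27.6 and 40.8 CPM (adjusted p = 0.169). Zic2, a transcription factor of formative cells, had 114 and 92.7 against 49 and 43 CPM (-1.16 ± 0.29), with an adjusted p of 0.0793 to 0.233 without any single library at 0 h. Sall1, a zinc finger factor, had 458 and 447 against 278 and 208 CPM (-0.90 ± 0.21), and its adjusted p was 0.103 to 0.183 without either tbGFP-negative library or tbGFP-positive replicate 2. L1td1, an RNA-binding protein gene derived from LINE-1, had 393 and 443 against 212 and 281 CPM (-0.76 ± 0.19), and its adjusted p was 0.0627 to 0.208 without either tbGFP-negative library or tbGFP-positive replicate 1. Prkci (-0.62 ± 0.15), Enah (-0.59 ± 0.16), Zfp568 (-0.68 ± 0.18) and Sept11 (-0.47 ± 0.13) completed the 10 genes with the largest fall in CPM. All 4 missed the threshold without tbGFP-negative replicate 1 or replicate 2, with an adjusted p of 0.0854 and 0.114 for Prkci, 0.107 and 0.284 for Enah, 0.168 and 0.198 for Zfp568, and 0.244 and 0.23 for Sept11. Without tbGFP-positive replicate 1 it was 0.1 for Prkci, 0.141 for Enah, 0.088 for Zfp568 and 0.151 for Sept11, and without tbGFP-positive replicate 2 it was 0.0889 for Enah, 0.218 for Zfp568 and 0.0844 for Sept11. Those last 3 also missed it without single libraries at later times (adjusted p of 0.0519 to 0.1). Among the lower genes with 10 counts in each library were 3 small nuclear RNA genes at 54696782 to 54729765 on chromosome 12 (GRCm38), Gm22513 (115 and 118 against 37.3 and 40.3 CPM), Gm26444 (53 and 61.9 against 20.7 and 14.1 CPM) and Gm23804 (24.3 and 26.4 against 9 and 5.68 CPM). Their copies may share reads, and each missed the threshold without tbGFP-negative replicate 2 or tbGFP-positive replicate 2 (adjusted p of 0.0932 to 0.183) and without tbGFP-negative replicate 1 (0.0567 to 0.0676). Without tbGFP-positive replicate 1 Gm26444 (0.0505) and Gm22513 (0.11) missed it as well. The others chosen by that rule, beside Rtl1 and AV205837, were the noncoding genes Gm28373 (-2.51 ± 0.73), Gm10390 (-2.20 ± 0.50) and Gm43803 (-1.70 ± 0.38), the small nuclear RNA gene Gm26244 (-1.87 ± 0.42) and A630089N07Rik (-1.80 ± 0.45). All 5 missed the threshold without tbGFP-negative replicate 2 (adjusted p of 0.103 to 0.194) and without tbGFP-positive replicate 2 (0.0732 to 0.179). Gm28373 (0.277), A630089N07Rik (0.0886) and Gm43803 (0.0539) also missed it without tbGFP-negative replicate 1, and Gm28373 (0.193), Gm26244 (0.0693) and A630089N07Rik (0.0765) without tbGFP-positive replicate 1. For Gm28373 it was 0.0544 to 0.0853 without any of 6 single libraries at later times.

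**Figure D4:**
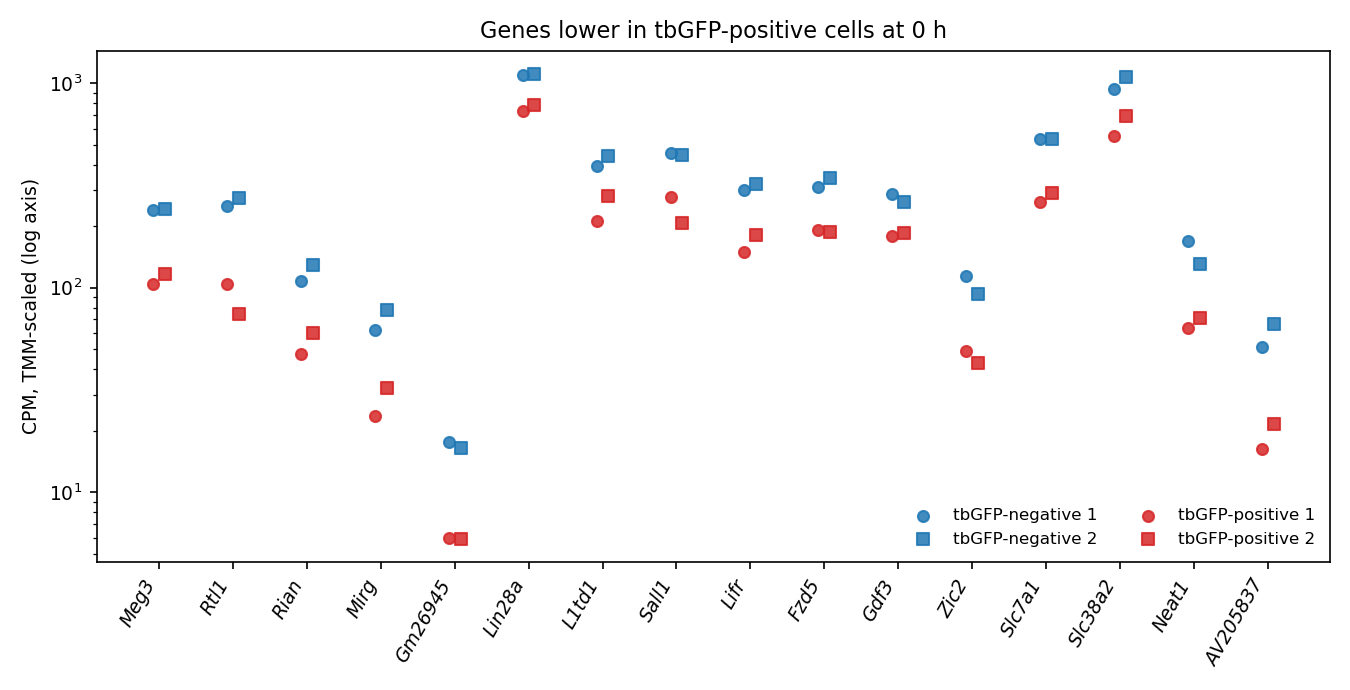
Each point is 1 library at 0 h, with its TMM-scaled CPM on a log axis, for 16 genes that were lower in tbGFP-positive cells. Red points are tbGFP-positive and blue points tbGFP-negative libraries (circles replicate 1, squares replicate 2). The red points lie below the blue ones for every gene shown, from 728 and 779 against 1100 and 1110 CPM for Lin28a to 104 and 74.1 against 252 and 275 CPM for Rtl1.

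Housekeeping and cell-cycle lists held some calls or none, beside 6.66% of all tested genes higher and 0.449% lower. Of 22 tested MCM and S-phase genes 0 were called (2 higher and 0 lower at an unadjusted p under 0.05, 0 with DESeq2), of 22 replication histone genes 0 (0 higher and 1 lower, 0 with DESeq2) and of 17 glycolysis genes 0 (0 higher and 1 lower, 0 with DESeq2). With library totals alone 6 MCM and S-phase, 2 histone and 3 glycolysis genes were lower. The median log2 fold changes of these lists were -0.32, 0.1 and -0.29 in that order. Of the 22 MCM and S-phase genes 14 had both tbGFP-positive libraries below both tbGFP-negative ones, and 2 had them above. The same held for 19 and 3 of 35 ribosomal protein genes, with a median of -0.4, and for 21.9% and 24.7% of all tested genes. Whether these lists shifted was not tested. Of 21 G2 and M phase genes 2 were higher, the motor protein gene Cenpe (656 ± 15.2 against 1140 ± 172 CPM, mean ± SD, n = 2, log2 fold change 0.80 ± 0.15) and Hmmr (926 and 905 against 1670 and 1790 CPM, 0.92 ± 0.15), and neither passed with library totals alone (adjusted p = 0.179 and 0.053), where the list had 0 higher and 2 lower members. Cycs, the cytochrome c gene, was the called member among 26 oxidative phosphorylation genes, with 11.9 and 12.9 against 243 and 218 CPM (4.20 ± 0.29). Dhcr7, the called member among 21 sterol synthesis genes (1 higher and 4 lower with library totals alone), had 0 and 0.227 against 15.7 and 12.4 CPM, a ratio of 81.8 (22.2 to 682). Its counts in tbGFP-positive cells lay mostly on transcripts annotated as retained introns or processed transcripts (69 of 82 counts in replicate 1 and 40 of 50 in replicate 2). Of 35 ribosomal protein genes Rplp0 was higher (682 and 640 against 1320 and 1140 CPM, 0.90 ± 0.15) and Rpsa (-0.98 ± 0.24) and Rps19 (-0.82 ± 0.19) lower, the latter pair with an adjusted p of 0.151 and 0.135 without tbGFP-negative replicate 1 and 0.0801 and 0.0505 without replicate 2. It was also 0.113 for Rpsa without tbGFP-positive replicate 1 and 0.0812 for Rps19 without tbGFP-positive replicate 2.

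Germline genes included higher members. Of 8 tested, 3 were higher and 0 lower, beside 6.66% of all tested genes higher. The count was 1 without tbGFP-negative replicate 2, 2 without tbGFP-negative replicate 1, without tbGFP-positive replicate 1 and with library totals alone or upper-quartile factors, and up to 5 without a tbGFP-positive library at 6 h. Slc25a31, a testis ADP/ATP carrier gene, had 5.23 and 2.95 against 34.7 and 36.3 CPM (3.20 ± 0.39), Taf7l 3.73 and 3.52 against 19.3 and 28.9 CPM (2.73 ± 0.52), and Tex19.1, a germ cell gene, 297 and 314 against 707 and 564 CPM (1.06 ± 0.23). Without tbGFP-negative replicate 2 the adjusted p was 0.0739 for Taf7l and 0.0801 for Tex19.1. For Tex19.1 it was also 0.101 without tbGFP-negative replicate 1 and 0.088 without tbGFP-positive replicate 1. Of 9 oocyte and zygote genes Oog1 was higher, with no count against 5.94 and 3.46 CPM, at least 18.6-fold higher, and its adjusted p was 0.0823 and 0.227 without tbGFP-negative replicates 1 and 2 and 0.0555 without tbGFP-positive replicate 1. Ooep, an oocyte gene that embryonic stem cells also express, had 299 and 304 against 300 and 302 CPM.

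Markers of other cell types were measured as well, beside 6.66% of all tested genes higher. Of 13 trophectoderm markers 6 were tested and 1 was higher (2 at an unadjusted p under 0.05, 1 with DESeq2), the keratin gene Krt8, with 19 and 16.4 against 73.2 and 51.1 CPM (1.83 ± 0.27). Cdx2, a defining marker, had 0 and 0.227 CPM in tbGFP-negative cells and no count in tbGFP-positive cells. The tested markers summed to 51.9 and 45.4 against 161 and 87.5 CPM. Of 12 fibroblast markers 7 were tested and 1 was higher (4 at an unadjusted p under 0.05, 2 with DESeq2, 0 lower by either), with a median log2 fold change of 1.49. The called member was the collagen gene Col5a1, with 38.5 and 36 against 106 and 102 CPM (1.49 ± 0.29, adjusted p = 0.0654 without tbGFP-negative replicate 2). They summed to 106 and 111 against 187 and 163 CPM. Of 14 primitive endoderm markers 7 were tested and 0 called (1 higher and 1 lower at an unadjusted p under 0.05, 0 higher and 1 lower with DESeq2), and they summed to 253 and 251 against 197 and 217 CPM. Of 14 mesoderm and ectoderm markers 10 were tested and 0 called (2 higher and 0 lower at an unadjusted p under 0.05, 1 and 0 with DESeq2), with sums of 103 and 75.6 against 171 and 118 CPM. In sorted bulk samples more cells of a type and more RNA per cell cannot be told apart, and the part of these markers in the results was not tested.

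**Figure D5:**
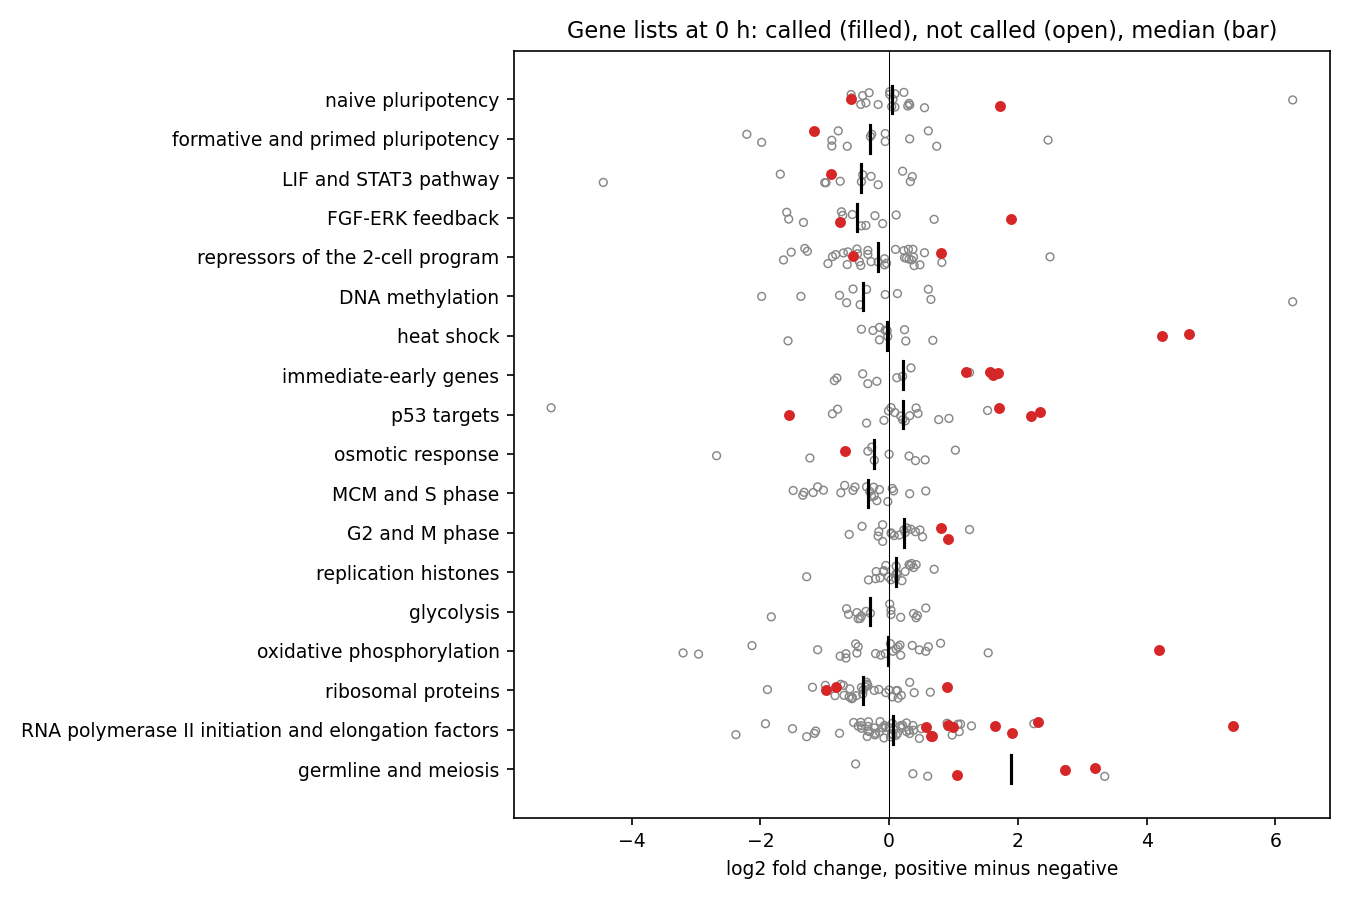
Each row is a gene list and each point a tested member at 0 h, placed by its log2 fold change (x axis, positive values higher in tbGFP-positive cells). Filled red points passed an adjusted p of 0.05, open grey points did not, and the black bar is the median of the list. The medians of most lists lie near 0, the median of all genes, with single called members such as Nelfa (5.34) and Cycs (4.2) far to the right.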

How the data were processed

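The authors started from 120 ng of RNA per library and a kit for stranded total RNA, per the labels. FastQC, HISAT2, featureCounts, DESeq2 and the build mm10 are named in the submitters' processing notes, with versions not given in the sources used here. Each deposited file gives raw counts for Ensembl transcripts, per the file headers. How strand and reads that match several transcripts were handled is not stated, so overlapping, antisense and near-identical genes are uncertain, and levels are compared between libraries, not genes. A low count need not mean little RNA. The ribosomal protein gene Rps15, for example, had 3 and 2 counts in tbGFP-negative and 4 and 2 in tbGFP-positive libraries at 0 h.

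Transcript counts were added up by gene using GENCODE M21 annotation (GRCm38), matched by identifier without version. Of 142446 transcripts 141536 matched, and the 910 others held 0.0606% to 0.0903% of counts and were left out. Genes with at least 10 counts in at least 2 of the 12 libraries (19384 of 38071 with counts) entered edgeR 4.0.16 with TMM factors and robust quasi-likelihood F tests. The spread was estimated over all 12 libraries (common dispersion 0.208, a coefficient of variation of 45.6%). P-values were adjusted over all 19384 genes with the Benjamini-Hochberg method, at 0.05. An SE is the absolute log2 fold change over the square root of F. Groups without a count were set at a floor of 3 counts in total (0.261 CPM for tbGFP-negative and 0.324 CPM for tbGFP-positive cells). Groups with 1 to 3 counts got a ratio with an exact 95% binomial interval. Both cover counting error only. Tested on simulated data for this comparison (19384 genes, 200 changed), the fit called 15% of 2-fold changes and 48% of 4-fold changes. The changed genes were drawn from those with more than 10 expected counts in the smallest library, so these shares do not cover genes with fewer counts. In the simulated data 0 of the 63 calls of the fit were false. False calls were not tested with as many changed genes as the 1291 higher ones here, nor with their share of counts.

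Per direction the text names the 10 called genes with the largest difference in mean CPM, the 10 with the largest fold change among those with 10 counts in each 0 h library, a fixed panel and list members. The lists, panel and rule were chosen with earlier results of these data known, and genes said to be chosen after values were seen fall outside the rule. Promoters were also searched for 7 longer strings, which are not reported here. Alternatives covered scaling, filters, the libraries in the fit, DESeq2 1.42.0, a replicate block and leaving out each library. With 1 library left in a group, its spread was assumed to be that of the other groups.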

Additional observations from a re-analysis of the deposited data

How the results depend on the processing

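Over 22 alternatives, 58 to 65 members of the 2-cell lists were called, all higher. Of 103 called genes named by the rule or chosen for the text, 51 passed in every alternative, and none changed sign in any. The others missed the threshold mainly where a library at 0 h was left out: 48 without tbGFP-negative replicate 2, 35 without tbGFP-negative replicate 1, 30 without tbGFP-positive replicate 1 and 27 without tbGFP-positive replicate 2.

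The count of all called genes was 1378 and ran from 810 to 2491 with single libraries left out, that of higher genes (1291) from 797 to 2002, and that of lower genes (87) from 13 to 489. The highest counts came without a tbGFP-positive library at 6 h. Without both of these, 2472 genes were called, 1997 higher and 475 lower. Without them and tbGFP-positive replicate 2 at 0 h, an alternative chosen after seeing the data, it was 2491, 2019 and 472. Lower genes numbered 620 with upper-quartile factors, 812 with library totals alone, 132 without a filter, 267 with the 4 libraries at 0 h alone and 241 with DESeq2. All 87 lower genes were also called lower with DESeq2, DESeq2 size factors and without both tbGFP-positive libraries at 6 h. They were also called lower with upper-quartile factors and library totals. Those 2 settings moved the median log2 fold change of all genes to -0.35 and -0.41, which by itself keeps lower calls lower. The replicate block kept 65 of the 87, the fit without a filter 76 and the 4 libraries at 0 h alone 83. Most of the 87 were not called lower when any single library at 0 h was left out. The cause of these differences between settings was not tested. Calls were 93.7% higher, against 63.5% with upper-quartile factors and 57% with library totals. The replicate block gave 1281 calls, 1216 higher and 65 lower, and ended 4 of the 103 calls (Sept11, Gm28373, Gabarapl1 and Gdf3). The labels do not say what the numbers mark, same-numbered libraries deviated together with r = 0.0148, and the block is given for completeness.

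Signs turned only for genes that passed in neither direction. The log2 fold change of Sox2 (0.01) was -0.04 with DESeq2 size factors and with DESeq2, -0.38 with upper-quartile factors, -0.44 with library totals, -0.02 without a filter, -0.01 with the filter on 0 h libraries, and -0.17 to 0.17 with single libraries left out. With upper-quartile factors Klf4 had -0.33, Dppa4 -0.26, Uhrf1 -0.24 and Trim28 -0.02, and with library totals -0.39, -0.32, -0.31 and -0.07. With single libraries left out Klf4 ran from -0.09 to 0.20, Dppa4 from -0.05 to 0.34, Trim28 from -0.62 to 0.96 and Uhrf1 from -0.68 to 0.74, and with the alternative chosen after seeing the data Uhrf1 had -0.72.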
